A study of Mus musculus with 4 samples.

Results

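The genes described here are 32 genes that work in germ cells: in meiosis, in the piRNA pathway, in the control of transcription in oocytes and spermatogonia, and in spermatids. They were taken as a named list (Dazl, Ddx4, Sycp1, Sycp2, Sycp3, Syce1, Mael, Tex101, Tdrd1, Tdrd9, Sohlh1, Sohlh2, Hormad1, Stag3, Smc1b, Rec8, Asz1, Mov10l1, Piwil1, Piwil2, Brdt, Stk31, Dpep3, Slc25a31, Tuba3a, Fkbp6, Mei1, Tex14, Tex15, Figla, Majin and Dmrtb1), 32 of the 21938 protein-coding genes of the GENCODE annotation. Peaks of methylated DNA were joined between libraries at an overlap of 1 bp or more. Of the 186169 joined regions, 143 overlapped the body of a listed gene or the 2 kb upstream of it, and each of the 32 genes had at least 1 such region, as had 17052 of the 21938 protein-coding genes. The promoter was the 1 kb on either side of the gene start.

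Somatic cells keep many germ cell genes silent by DNA methylation. The promoters of most genes with many CpG sites stay free of methylation in every tissue, but a set of germ cell promoters gains methylation in the early embryo, when the de novo DNA methyltransferases act, and keeps it in somatic lineages through the maintenance enzyme DNMT1. Transcription factors that bind E-box and E2F sites, among them MGA, MAX and E2F6, are known to bring repressors to some of these promoters.

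Methylated DNA was measured in islets of mice 8 weeks old by MeDIP-seq, in which fragments bound by an antibody against methylated cytosine are sequenced. Both genotypes carried floxed Raptor alleles (Raptor lox/lox, strain C57BL/6), so that WT mice were floxed littermates without Cre, and βRapKO mice also carried RipCre. Raptor is the defining subunit of mTORC1. Cre was driven by the rat insulin promoter, which acts in beta cells, whereas islets also hold other endocrine, vascular and stromal cells, and the Cre line had a mixed C57BL/6J and 129/SvJ background. There were 2 libraries per genotype, and nothing in the labels says that they came from separate animals, so p-values measure the spread between these libraries. The libraries kept 25585533 to 31330751 tags after removal of duplicates and held 117638 to 151093 peaks, the deepest and richest being WT replicate 2. Tags in peaks made up 32% and 35.4% of the WT libraries and 29.2% and 31.0% of the βRapKO libraries. The deletion of Raptor itself was not checked here, since tags outside peaks were not used. The promoters of 8 beta cell marker genes and of 5 markers of other islet cells had no peak in any library. Of 4 exocrine markers, Krt19 had a promoter peak in all 4 libraries and Cpa1 in some. Of 2 endothelial markers, Pecam1 had one in some libraries. Among all protein-coding promoters 10.3% had a peak in all 4 libraries. RNA was not analysed here, so the tissue label was not checked by expression.

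The promoter sequences of the 4 germ cell genes with the most tags, Dazl, Sohlh2, Fkbp6 and Dpep3, lay inside regions with a peak in every library. Each is 300 bases long and comes from RefSeq on GRCm38.p6, read 5′ to 3′ on the strand of the gene, with CpG sites in capitals. They lie at chr17:50293571-50293870 (minus strand, 28 CpG sites), chr3:55181794-55182093 (plus, 17), chr5:135349995-135350294 (minus, 21) and chr8:105979370-105979669 (minus, 12). In every library the peak summits of Dazl, Sohlh2 and Dpep3 lay downstream of the printed bases.
Dazl: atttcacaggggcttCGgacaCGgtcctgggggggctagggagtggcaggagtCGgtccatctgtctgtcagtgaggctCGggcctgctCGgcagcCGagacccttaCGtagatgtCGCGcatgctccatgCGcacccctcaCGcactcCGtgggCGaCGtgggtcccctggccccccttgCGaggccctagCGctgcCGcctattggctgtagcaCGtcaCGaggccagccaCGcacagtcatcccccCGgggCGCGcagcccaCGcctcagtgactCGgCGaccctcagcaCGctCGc
Sohlh2: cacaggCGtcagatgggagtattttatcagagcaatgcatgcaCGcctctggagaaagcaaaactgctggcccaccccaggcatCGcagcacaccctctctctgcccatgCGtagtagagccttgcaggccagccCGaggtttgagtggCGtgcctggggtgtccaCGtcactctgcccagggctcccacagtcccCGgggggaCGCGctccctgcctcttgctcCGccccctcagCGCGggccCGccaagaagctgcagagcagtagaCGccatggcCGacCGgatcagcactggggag
Fkbp6: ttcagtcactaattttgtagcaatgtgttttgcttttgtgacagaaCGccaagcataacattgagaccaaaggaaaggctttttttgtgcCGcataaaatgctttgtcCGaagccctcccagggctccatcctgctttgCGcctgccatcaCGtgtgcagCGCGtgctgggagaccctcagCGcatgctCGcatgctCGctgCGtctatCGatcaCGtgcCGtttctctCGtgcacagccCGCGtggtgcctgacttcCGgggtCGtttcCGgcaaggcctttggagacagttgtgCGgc
Dpep3: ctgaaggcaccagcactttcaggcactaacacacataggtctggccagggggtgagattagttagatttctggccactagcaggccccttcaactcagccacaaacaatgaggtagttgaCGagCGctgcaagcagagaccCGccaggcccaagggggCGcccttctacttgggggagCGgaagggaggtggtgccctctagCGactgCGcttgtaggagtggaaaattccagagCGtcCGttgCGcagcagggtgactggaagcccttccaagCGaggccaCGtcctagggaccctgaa

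A further 3 promoters are shown for contrast. Rec8 (chr14:55617916-55618215, plus strand) held 18 CpG sites and no promoter peak in any library. Ddx4 (chr13:112652261-112652560, minus strand) held 38 CpG sites and had the most negative fold-change. Smc1b (chr15:85131908-85132207, minus strand) held 29 CpG sites, and a peak in WT libraries alone lay upstream of the printed bases, over which no library had a peak. Ddx4 and Smc1b were added after their values were seen.
Rec8: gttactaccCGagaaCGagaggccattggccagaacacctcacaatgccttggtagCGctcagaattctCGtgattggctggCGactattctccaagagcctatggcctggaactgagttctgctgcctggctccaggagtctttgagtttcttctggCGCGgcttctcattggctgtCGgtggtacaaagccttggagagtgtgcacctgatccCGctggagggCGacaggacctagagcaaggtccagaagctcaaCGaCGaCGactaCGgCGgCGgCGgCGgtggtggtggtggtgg
Ddx4: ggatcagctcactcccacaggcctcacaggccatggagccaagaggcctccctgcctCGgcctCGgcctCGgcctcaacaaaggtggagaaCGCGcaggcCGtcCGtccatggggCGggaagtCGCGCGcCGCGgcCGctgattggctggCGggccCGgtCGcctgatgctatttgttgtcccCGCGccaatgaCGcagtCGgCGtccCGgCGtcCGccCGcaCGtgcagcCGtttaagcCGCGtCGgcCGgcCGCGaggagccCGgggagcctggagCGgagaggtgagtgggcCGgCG
Smc1b: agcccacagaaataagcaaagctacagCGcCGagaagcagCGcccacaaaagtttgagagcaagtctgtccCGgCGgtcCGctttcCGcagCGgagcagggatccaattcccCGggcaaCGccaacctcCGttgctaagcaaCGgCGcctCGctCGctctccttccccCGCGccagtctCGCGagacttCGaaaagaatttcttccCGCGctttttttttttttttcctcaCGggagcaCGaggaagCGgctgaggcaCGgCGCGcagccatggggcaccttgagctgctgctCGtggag

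A RefSeq promoter was matched for 29 of the 32 genes (not for Piwil2, Tex15 and Majin). These lie at RefSeq starts, not at the gene records used for peaks. The distance between both starts was 33722 bp for Piwil1, 12480 bp for Mei1, 4625 bp for Tex101 and 1020 bp for Figla. The E-box CACGTG, which reads alike on both strands, was found in 15 of the 29 (51.7%), against 8.08% of 16522 protein-coding promoters and 10.9% of the 8296 with a high CpG content. The 15 were Brdt, Ddx4, Fkbp6, Hormad1, Mael, Mov10l1, Piwil1, Slc25a31, Sohlh1, Stag3, Stk31, Sycp1, Sycp3, Tdrd1 and Tdrd9. Of these 15, 13 had a promoter peak in all 4 libraries, as had 10 of the 14 without an E-box. A link between motif and methylation was not tested. The E2F motif GGCGGGAA (TTCCCGCC on the other strand), which can share at most 1 base with an E-box, was found in 5 promoters (17.2%): Ddx4, Hormad1, Slc25a31, Tex14 and Tuba3a. Among all promoters 3.03% held it, and among those with a high CpG content 5.05% did. In the sequences above, Fkbp6 and Ddx4 hold the E-box and Ddx4 also holds the E2F motif, whereas Dazl, Sohlh2, Dpep3, Rec8 and Smc1b hold neither in this window. A match is a description of these letters and not a measured binding site.

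Of the 32 germ cell promoters, 25 (78.1%) had a peak in all 4 libraries, against 10.3% of all protein-coding promoters (2253 of 21938). The 32 genes were chosen with earlier results of these data known, so this share does not describe germ cell genes at large. The other germ cell lists given further below had 50.0%, 33.3% and 28.6%. By library, a peak was called at 27 and 28 of the 32 promoters in WT and at 25 and 27 in βRapKO, where 14.5% to 17.8% of all promoters had a peak. Among the 16 genes with a high CpG promoter, 13 had a peak in all 4 libraries (81.2%), against 8.03% of the 10699 genes of that class. Among the 13 with an intermediate promoter, 11 did (84.6%), against 20.2% of 4183. Of the 3 with a low CpG promoter only Figla did (33.3%), against 7.77% of 7056. The gene records of these 3 genes (Figla, Tex101 and Piwil1) start upstream of their principal transcripts, whose promoters fall in the intermediate class. The high class had a 500 bp window with an observed over expected CpG ratio above 0.75 and a GC content of at least 55%, and the low class had no window reaching 0.48.

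**Figure D1:**
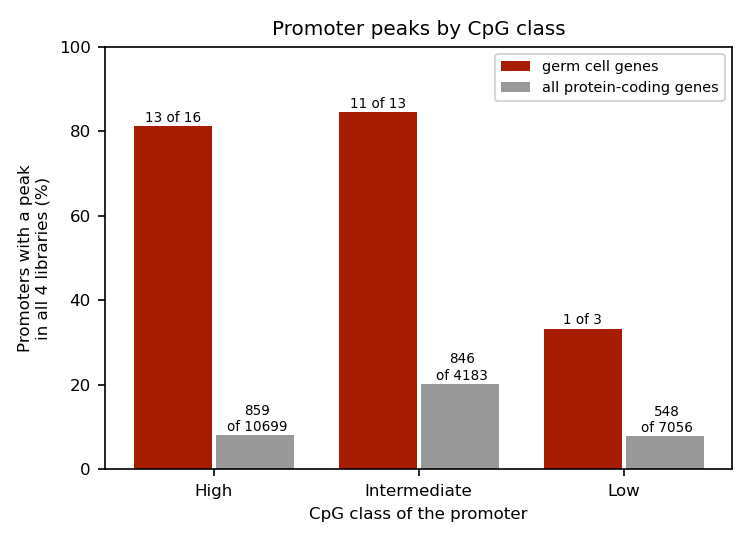
Share of promoters (%, y axis, from 0) with a peak of methylated DNA in all 4 libraries, by CpG class of the promoter (x axis), for the germ cell genes (red bars) and all protein-coding genes (grey bars), with the counts above each bar. The red bar stands at 81.2% against 8.03% in the high CpG class and at 84.6% against 20.2% in the intermediate class.

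The peaks lay over the gene starts. In 24 of the 25 promoters the region covered the start itself, against 36.4% of the 2253 promoters with a region in all 4 libraries, and Mei1 was the exception. Peak summits fell within 500 bp of the start in 78 of 100 cases (25 promoters in 4 libraries), against 24.3% of the summits at all such promoters, and their median position was 167 bp downstream. For a given gene the 4 summits spanned a median of 102 bp. At the start itself 68.75% of the germ cell genes were inside a peak in all 4 libraries, against 0.721% of other genes with a high CpG promoter and 2.64% of all other genes. Of the 10699 genes with a high CpG promoter, 117 (1.09%) had a region in all 4 libraries over the start, and 12 of these 117 were from the 32 germ cell genes.

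**Figure D2:**
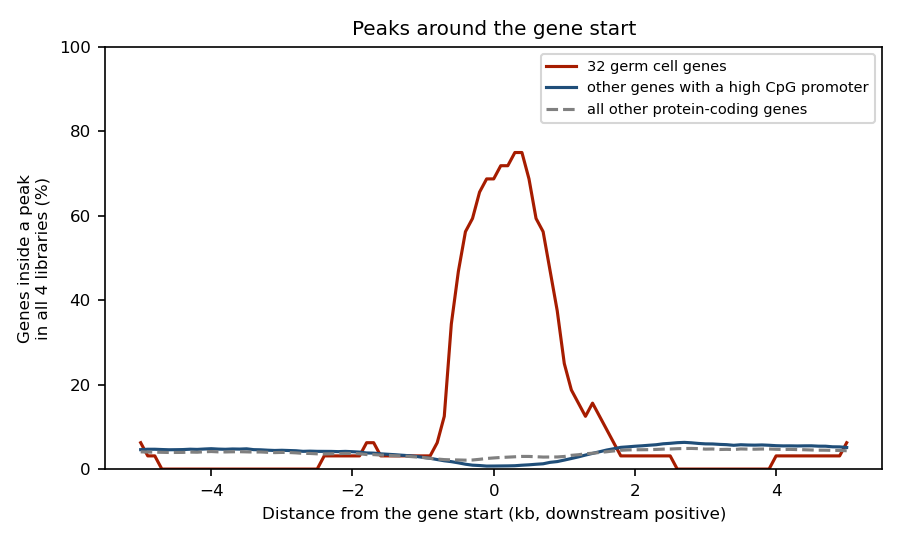
Share of genes (%, y axis) that lay inside a peak in all 4 libraries at each distance from the gene start (x axis, kb, downstream positive), for the 32 germ cell genes (red), other genes with a high CpG promoter (blue) and all other protein-coding genes (grey dashes). The red line reaches 75% at 300 bp downstream and is at 3.13% at 1 kb upstream, where the blue line is at 2.77%.

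Levels between genes were compared as tags per 1000000 kept tags (CPM) per kb of peak. By this measure the germ cell promoters ranged from 1.62 (Figla) to 4.52 CPM per kb (Fkbp6) in the mean of the 4 libraries, with a median of 2.89. Set among all 75052 regions with a peak in all 4 libraries they stood at a median percentile of 87.0, from 18.5 to 98.8, and 21 of the 25 stood above the median region. In each library the median over the 25 promoters (2.90 and 2.92 in WT, 2.55 and 2.70 in βRapKO) was above that over all 2132 promoter regions (2.01 and 2.14 in WT, 1.79 and 1.83 in βRapKO). The germ cell regions were also dense in CpG sites, with a median of 3.38 per 100 bp against 2.06 in all promoter regions, and the antibody captures fragments dense in methylated CpG sites more readily, so these levels were not corrected for CpG density.

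**Figure D3:**
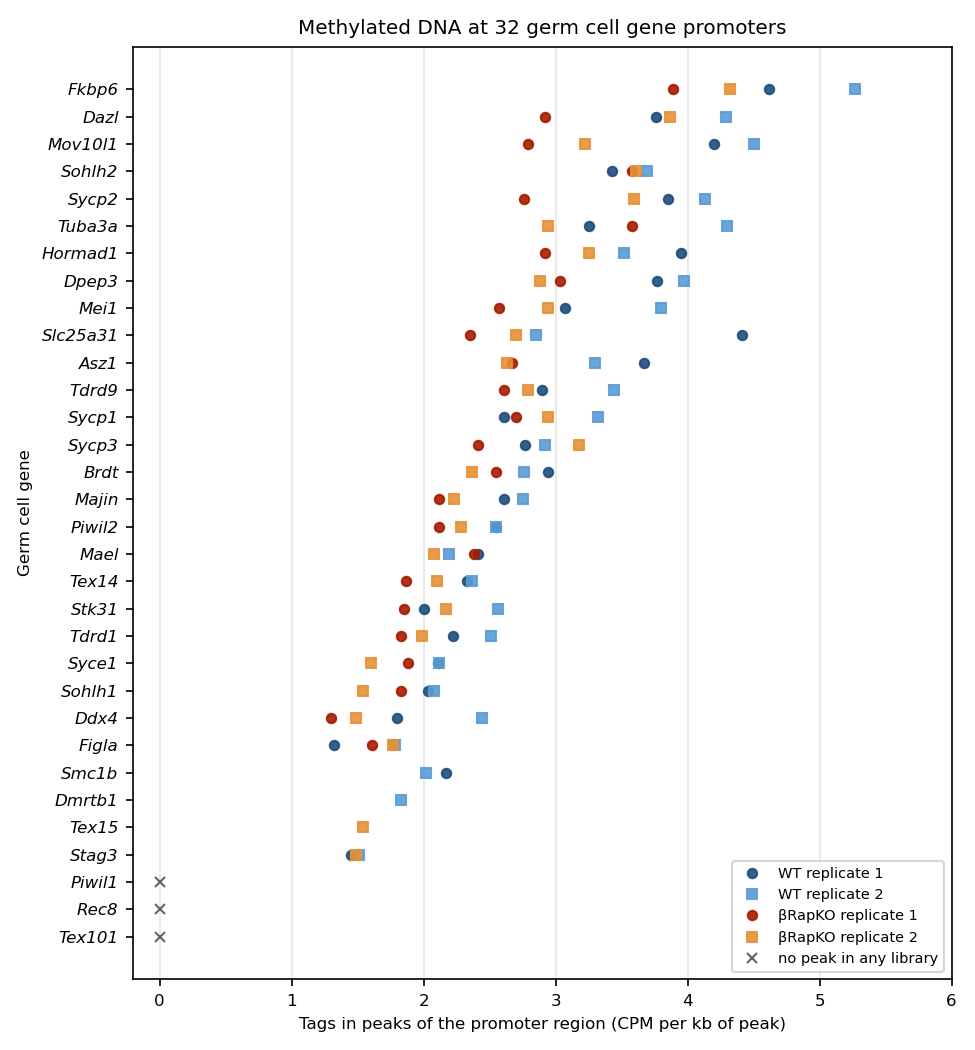
Tags in the promoter region of each of the 32 germ cell genes (y axis, ordered by mean) in CPM per kb of peak (x axis), with a point for each library (WT in blue, βRapKO in red and orange) where a peak was called and a cross where no library had one. Fkbp6 is at the top with 3.89 to 5.27, Figla is at the bottom of the 25 genes called in all libraries with 1.32 to 1.78, and Piwil1, Rec8 and Tex101 have crosses.

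The values below are CPM in the promoter region on mm10, in the order WT replicate 1, WT replicate 2, βRapKO replicate 1 and βRapKO replicate 2. They compare libraries for a gene, not genes. Both βRapKO values lay below both WT values in 25.3% of all regions and in 30.6% of all promoter regions. All 4 genes of the synaptonemal complex, the protein zipper between paired meiotic chromosomes, had a promoter peak in every library. Sycp1, the transverse filament, had 5.0, 6.10, 5.13 and 5.76 CPM at chr3:102934961-102936981, from upstream of the start through exon 2. Sycp2, of the lateral element, had 5.47, 6.29, 4.38 and 5.59 CPM at chr2:178406666-178408274, over exon 1. In both genes the WT and βRapKO values overlapped. Sycp3, the partner of Sycp2 in the lateral element, had 4.89, 5.07, 4.72 and 5.66 CPM at chr10:88458784-88460763, and its βRapKO values lay on both sides of the WT values. Syce1, of the central element, had 3.20, 3.29, 2.64 and 2.60 CPM at chr7:140786847-140788480. Here the βRapKO values were both below the WT values.

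Among the 6 genes listed together for meiotic cohesin, the chromosome axis and other steps of meiosis, 3 had a promoter peak in every library. Hormad1, an axis protein that marks unpaired chromosomes, had 5.90, 5.27, 4.28 and 5.42 CPM at chr3:95558860-95560555, over exon 1. Majin, which ties telomeres to the nuclear envelope in meiosis, had 3.48, 3.32, 3.08 and 2.78 CPM at chr19:6183560-6185009. Its βRapKO values were the lower ones, whereas those of Hormad1 overlapped with WT. Mei1, needed for meiotic double-strand breaks, had 5.24, 4.56, 4.31 and 4.76 CPM at chr15:82070936-82072724. This region began 940 bp downstream of the start of the gene record, and the principal transcript of Mei1 starts 12468 bp downstream of that point. The region over that principal start, chr15:82081207-82084225, had a peak with 144 tags in WT replicate 2 and with 127 and 154 tags in the βRapKO libraries, and none in WT replicate 1.

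The 3 meiotic cohesin subunits had no promoter peak in all libraries. Stag3 had 29 and 32 tags in WT and 34 tags in βRapKO replicate 2 at chr5:138280508-138281344, downstream of its start, and no peak in βRapKO replicate 1. Smc1b had 69 and 97 tags in WT and no peak in βRapKO at chr15:85132543-85134076, a region from −2112 to −579 bp relative to the start. Rec8 had no peak within 1 kb of its start in any library and a single region further in, over exons 8 to 10 (chr14:55621890-55622746), with 37 tags in WT replicate 2 and 35 in βRapKO replicate 1. A missing call does not show that methylation was absent, since only tags of called peaks were used here.

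In the piRNA pathway, which silences transposons in the germ line through PIWI proteins and their small RNAs, 8 of 10 genes had a promoter peak in every library. Fkbp6, a co-chaperone of the pathway, had 8.68, 9.06, 6.64 and 8.05 CPM at chr5:135349008-135350927. Mov10l1, the helicase that starts piRNA biogenesis, had 6.02, 6.35, 4.89 and 5.96 CPM at chr15:88982191-88984059. Tdrd9, a tudor domain helicase, had 6.02, 6.13, 5.34 and 5.69 CPM at chr12:111971174-111973337. In these 3 genes both βRapKO values were below both WT values, and for Mov10l1 the gap between 5.96 and 6.02 was smaller than the spread within either genotype. Tdrd1, a tudor scaffold of the nuage, had 7.11, 5.11, 4.04 and 4.63 CPM at chr19:56825739-56829290, a wide region that ran 3081 bp into the gene. Asz1, of the nuage at mitochondria, had 3.87, 3.73, 3.15 and 3.26 CPM at chr6:18108417-18109682. Ddx4, the vasa helicase, had 2.42, 3.22, 1.33 and 1.89 CPM at chr13:112651197-112652560, over exons 1 to 2, with 62, 101, 39 and 55 tags. In all 3 of them the genotypes did not overlap and βRapKO was lower, as in 30.6% of all promoter regions.

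Piwil2, a PIWI protein, had 3.63, 3.89, 2.94 and 4.08 CPM at chr14:70428067-70429858, and Mael, needed for transposon silencing, had 3.6, 2.81, 3.29 and 3.6 CPM at chr1:166237643-166239374. In both the genotypes overlapped. Tex15 had a promoter peak in βRapKO replicate 2 alone, with 32 tags at chr8:33516245-33516958. Its gene record starts 53806 bp before its principal transcript. Piwil1 had no promoter peak by the gene record, whose start lies 33650 bp before that of the principal transcript. The region over the principal start of Piwil1, chr5:128735085-128736855, had a peak in every library, with 3.40, 3.48, 3.29 and 3.70 CPM. The 4 values overlapped between genotypes.

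The germ cell transcription factors had a promoter peak in every library in 3 of 4 cases. Sohlh2, a helix-loop-helix factor of spermatogonia and oocytes, had 8.29, 8.87, 7.87 and 7.92 CPM at chr3:55181176-55183973, with βRapKO below WT. Its partner Sohlh1 had 3.52, 3.51, 3.63 and 2.88 CPM at chr2:25845846-25848044, with overlap. Figla, a factor that oocytes use to turn on zona pellucida genes, had 1.76, 3.29, 3.29 and 3.46 CPM at chr6:86016123-86018284, and WT replicate 1, with 45 tags, stood apart from the other 3 libraries (96 to 103 tags). Dmrtb1 had a promoter peak in WT replicate 2 alone, with 157 tags at chr4:107682608-107685347. Just upstream, at chr4:107685576-107687012, Dmrtb1 had a region in every library with 3.32, 2.90, 1.85 and 3.02 CPM.

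Of the other 8 genes, 7 had a promoter peak in every library. Dazl, an RNA-binding protein needed for germ cell fate, had 9.26, 10.4, 7.26 and 10.1 CPM at chr17:50292913-50295624, with 237, 325, 212 and 296 tags. The WT libraries averaged 9.82 ± 0.785 and the βRapKO libraries 8.70 ± 2.04 CPM (SD, n = 2 each). The βRapKO values of Dazl lay below and between those of WT. Brdt, a bromodomain protein of spermatids, had 6.29, 6.29, 4.35 and 4.73 CPM at chr5:107330093-107332421. Dpep3, a dipeptidase of the testis, had 7.50, 6.22, 4.59 and 5.79 CPM at chr8:105978080-105980115. Both were lower in both βRapKO libraries. Slc25a31, the ADP/ATP carrier of the germ line, had 5.35, 5.20, 4.48 and 4.87 CPM at chr3:40707787-40709814. Stk31 had 3.01, 3.06, 2.36 and 2.95 CPM at chr6:49394942-49396448, and Tex14, of the bridges between germ cells, had 3.13, 2.84, 2.36 and 2.64 CPM at chr11:87404727-87406101, a region that also holds the start of Rad51c, a DNA repair gene. In these 3 genes too the βRapKO values were the lower ones. Tuba3a, a testis tubulin with near-identical copies in the genome, so that its tags are uncertain, had 4.69, 6.61, 5.68 and 5.79 CPM at chr6:125285117-125287094, with overlap. Tex101, a surface protein of germ cells, had no promoter peak by the gene record, but the region over its principal start 4625 bp further along (chr7:24671242-24672913) had a peak in every library, with 5.51, 5.14, 4.07 and 4.22 CPM. With principal starts in place of gene records, 26 of 32 genes had a promoter peak in all 4 libraries, since Tex101 and Piwil1 came in and Mei1 went out.

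βRapKO islets were compared with WT to ask whether the loss of mTORC1 in beta cells goes with a change of methylated DNA at these genes. No germ cell region passed the test: 0 of the 25 promoter regions and 0 of all 65 regions with a peak in every library reached an FDR of 0.05 with a fold-change above 1.5, as did 0.0% of the 75052 regions in either direction (the quasi-likelihood test of edgeR, with p-values adjusted by Benjamini-Hochberg). The smallest adjusted p was 0.800 among the promoters and 0.745 among all 65 regions by that edgeR test. DESeq2, limma and TMM normalization in edgeR called 0 of them too. By contrast, the authors reported many differentially methylated regions between βRapKO and WT islets, most of them lower in βRapKO. They counted reads in fixed windows with MEDIPS, a method that was not run here. The counts given here therefore hold for tags in called peaks under the tests named, and do not show that these islets lack differential methylation. At an unadjusted edgeR p under 0.05 there were 3 promoter regions, all lower in βRapKO (Ddx4, Tdrd1 and Brdt), and 6 of the 65 regions, of which 5 were lower, against 3.93% of all regions lower and 1.88% higher. The 3 promoters became 0 without βRapKO replicate 1 and 6 without βRapKO replicate 2. Past a fold-change of 1.5 there was 1 promoter region lower (Ddx4) and 0 higher, against 1.77% and 1.29% of all regions.

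Most of the promoter values were below 0. Of the 25 promoter regions, 21 had a negative log2 fold-change, against 60.8% of all regions and 66.9% of all promoter regions, with a median of −0.189 against −0.059 and −0.105. Added over the 25 regions, WT libraries held 127 and 130 CPM and βRapKO libraries 106 and 121 CPM, from peaks that covered 42.6, 40.7, 42.1 and 44.6 kb. In 14 of the 25, the βRapKO values were both below the WT values, and in 0 they were both above. Over all regions these shares were 25.3% and 11.6%, and over all promoter regions 30.6% and 9.38%. The genes with both βRapKO values lower were Ddx4, Tdrd1, Brdt, Dpep3, Syce1, Fkbp6, Tex14, Asz1, Majin, Stk31, Mov10l1, Slc25a31, Tdrd9 and Sohlh2.

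These figures moved with single libraries and with the scaling. In whole islets a smaller share of methylated copies, a different mix of cell types and weaker capture by the antibody cannot be told apart. Over all regions the median fold enrichment over the local background was 8.24 and 8.78 in WT and 7.66 and 7.7 in βRapKO. Without βRapKO replicate 1, which had the lowest sum, the median log2 fold-change of the 25 promoters was −0.0944, and without βRapKO replicate 2 it was −0.301. With the tags in peaks as library size the median of all regions moved from −0.059 to 0.104 and that of the promoters to −0.0283, with 15 of 25 negative and 3 with both βRapKO values lower. With TMM normalization the promoters had a median of −0.128 with 20 of 25 negative, and all regions 0.00378. The distance between both medians, which a library size shifts little by construction, was −0.130 with kept tags. It was −0.0663 without βRapKO replicate 1, −0.201 without βRapKO replicate 2, −0.0968 for tags within 1 kb of the gene start and −0.103 per kb of peak.

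**Figure D4:**
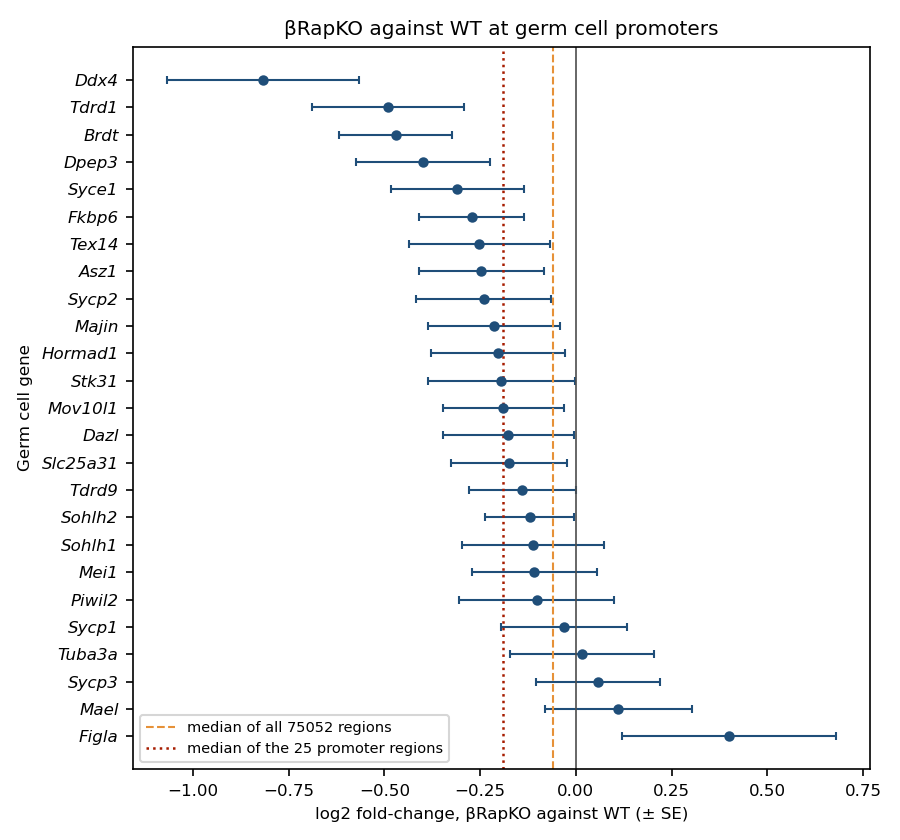
log2 fold-change of βRapKO against WT (x axis, points, with bars of ± SE from edgeR) for the 25 promoter regions with a peak in all 4 libraries (y axis), with the median of all 75052 regions as an orange dashed line and that of the 25 as a red dotted line. Points run from −0.82 (Ddx4) to 0.40 (Figla), 21 of 25 lie left of 0, and none passed the test.

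The most negative log2 fold-change was that of Ddx4, at −0.82 (SE 0.251, adjusted p = 0.800 by edgeR), and it ran from −1.09 without βRapKO replicate 2 to −0.59 without WT replicate 2. Its peak over the local background was 13.4-fold and 14.7-fold in WT and 6.42-fold and 8.12-fold in βRapKO. Tdrd1 followed with −0.49 (SE 0.199), with −0.24 when WT replicate 1 was left out and with −0.15 for the tags within 1 kb of its start, since its region ran further into the gene. Brdt had −0.47 (SE 0.147), and −0.21 per kb of peak. At the other end stood Figla with 0.40 (SE 0.280), which was 0.037 without WT replicate 1, the library that stood apart. Mael had 0.11 (SE 0.192) and Sycp3 0.059 (SE 0.162), and per kb of peak these were −0.049 and −0.031. Among the promoters with the most tags, Dpep3 had −0.40 (SE 0.175), Fkbp6 −0.27 (SE 0.137) and Mov10l1 −0.19 (SE 0.157). Without βRapKO replicate 1 these were −0.24, −0.14 and −0.054, without βRapKO replicate 2 they were −0.58, −0.42 and −0.34, and Mov10l1 had −0.53 per kb of peak. Dazl had −0.18 (SE 0.170), which was 0.046 without βRapKO replicate 1, and Sohlh2 had −0.12 (SE 0.117), which was 0.043 with tags in peaks as library size and 0.011 per kb of peak.

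CpG density moved with the fold-change over the whole table. Over all regions the median log2 fold-change was −0.0338 at under 1 CpG site per 100 bp, −0.0746 at 2 to 3, −0.118 at 3 to 4 and −0.21 at 5 to 6, and the share of regions with a negative value went from 55% to 86.2%. The germ cell promoter regions held 2.36 to 5.79 sites per 100 bp. Within the ranges of CpG density and CPM that they spanned there were 9667 regions, with a median of −0.119, of which 74.7% were negative and 37.6% had both βRapKO values below those of WT. Of the 496 promoter regions in those ranges the median was −0.167, with 78.0% negative and 39.7% with both βRapKO values lower. Beside these stood −0.189, 21 of 25 (84.0%) and 14 of 25 for the germ cell promoters, and the difference was not tested. Only the outer ranges were shared, not the distribution within them. By bins of 2 to 3, 3 to 4, 4 to 5 and 5 to 6 sites, germ cell medians were −0.111, −0.23, −0.113 and −0.497. These came from 9, 10, 4 and 2 promoters. All regions had −0.0746, −0.118, −0.181 and −0.21 in the same bins.

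**Figure D5:**
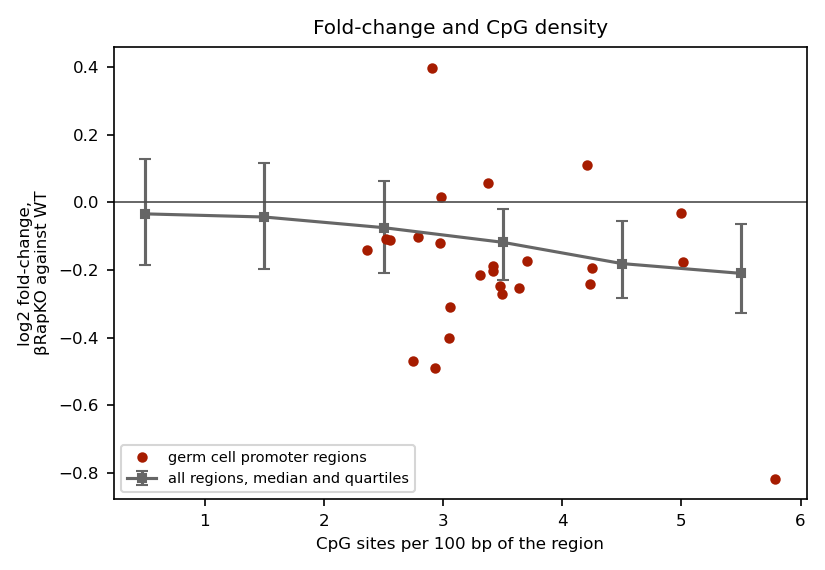
log2 fold-change of βRapKO against WT (y axis) by CpG sites per 100 bp of the region (x axis), for all regions as the median with quartile bars in bins of 1 site (grey) and for the 25 germ cell promoter regions (red points). The grey medians go from −0.0338 to −0.21 and the red points scatter on both sides of them, with Ddx4 at 5.79 sites and −0.82.

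Beyond the promoters the germ cell genes held 40 regions with a peak in every library, at a median of 1.84 CpG sites per 100 bp. Their median log2 fold-change was −0.143, with 31 of 40 negative (77.5%, against 60.8% of all regions). The βRapKO values were both below those of WT in 13 of 40 and both above in 2, where the shares of all regions were 25.3% and 11.6%. The region with the lowest unadjusted p of all 65 lay over exons 12 to 13 of Tdrd1 (chr19:56846647-56849099), with 11.6, 10.2, 8.45 and 7.71 CPM. Its log2 fold-change was −0.43 (SE 0.124, adjusted p = 0.745 by edgeR). The highest value was in intron 9 of Stk31 (chr6:49422036-49422863), with 0.899, 1.02, 1.61 and 1.2 CPM and a log2 fold-change of 0.54 (adjusted p = 0.858 by edgeR), whereas the promoter of Stk31 had −0.19. Tdrd9, which had the most regions (19, of which 6 with a peak in every library), held a strong one in intron 13 (chr12:112019819-112021874), with 6.33, 7.25, 6.84 and 5.83 CPM and overlap between genotypes. Over the principal starts of Tex101 and Piwil1 the log2 fold-changes were −0.36 (SE 0.153) and 0.022 (SE 0.169).

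Few germ cell regions were called in a single genotype. Both WT libraries and neither βRapKO library had a peak in 4 of the 143 regions (2.80%), against 4.16% of all regions, and the reverse held for 1 (0.699%), against 1.58%. The 4 were the Smc1b upstream region, exon 7 of Ddx4 (chr13:112626166-112626657, 30 and 32 tags), intron 20 of Piwil2 (chr14:70380966-70381790, 29 and 35 tags) and exon 5 of Tuba3a (chr6:125277831-125279056, 72 and 65 tags). The region called in βRapKO alone lay over exons 18 to 19 of Mei1 (chr15:82115503-82116358, 28 and 36 tags). Apart from Smc1b none of them touched a promoter, and WT replicate 2, with the most peaks, had 122 peaks at these genes against 96, 88 and 96 in the other 3 libraries.

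Other germ cell genes were set beside the 32. Among all protein-coding promoters, 10.3% had a peak in all 4 libraries. Of 14 further meiosis genes, 7 had a promoter peak in all 4 libraries (Dmc1, Syce3, Tex11, Tex12, Hormad2, Rad21l and Stra8), and of 15 further genes of the piRNA pathway and of early germ cells, 5 did (Tdrd12, Piwil4, Gtsf1, Tex19.1 and Taf7l). Of 14 genes of late spermatids and the oocyte coat, 10 of which have a low CpG promoter, 4 did (Prm3, Odf1, Acr and Zp3). The median log2 fold-changes of these promoters were 0.0737, −0.204 and −0.287 (7, 5 and 4 regions), and none passed the test. Over all promoter regions the median was −0.105. Among 12 genes for repressors of the germ cell program, the promoters of E2f6 and Ehmt1 had a peak in all 4 libraries (16.7%). Of the 12, 11 have a high CpG promoter, a class where 8.03% of all genes had one. Dnmt1 and Dnmt3a had a promoter peak in some libraries. Of 12 housekeeping genes Eef2 alone had one in all 4 (8.33%).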

How the data were processed

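MeDIP-seq peak lists of 4 islet libraries, 2 WT and 2 βRapKO, were used. The authors aligned reads to mm10 with Bowtie2 2.2.5 and called peaks in each library with MACS (version 1.4.2 in the file headers, 0.14.2 in the labels), at a p cutoff of 1e-05, keeping 1 tag per position and using no control library. The labels also name mm9, but the peak ends lie within the chromosome lengths of mm10. For each peak the authors deposited a raw count of tags, the p of the caller as −log10 multiplied by 10, and a fold enrichment over the local background of the same library. Without a control library, peaks can also mark repeats, and deeper libraries pass the threshold more easily.

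Peaks were joined at an overlap of 1 bp, the counts of a library within a joined region were added, and CPM was taken per 1000000 kept tags. Where several regions touched a promoter, the one called in the most libraries was used, and among equals the one with the highest mean CPM. Regions called in all 4 libraries were fitted with edgeR 4.0.16 (quasi-likelihood test, kept tags as library size, Benjamini-Hochberg adjustment over 75052 regions, R 4.3.3). The SE of a log2 fold-change was derived as its absolute value divided by the square root of the F statistic of that test. DESeq2 1.42.0 and limma 3.58.1 on log2(CPM + 0.5) were alternatives, beside other library sizes, TMM, peak thresholds, joins, promoter widths and leaving out each library. The edgeR step was tested on simulated data whose changes were larger than those of the germ cell regions. Its power at smaller changes was not tested. Genes and principal transcripts came from GENCODE M21, CpG content from GRCm38, and promoter sequences from RefSeq on GRCm38.p6. No libraries were left out.

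The 32 genes and the gene lists were chosen with earlier results of these data known. All 32 were accounted for. Values were given in depth for the 5 promoter regions with the highest mean CPM, the 3 most negative and 3 most positive log2 fold-changes, and regions called in both libraries of a single genotype. Sequences were printed for the 4 promoters with the highest CPM and for Rec8, with Ddx4 and Smc1b added later.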

Additional observations from a re-analysis of the deposited data

How the results depend on the processing

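The count of germ cell regions past the FDR and fold-change stayed at 0 in each alternative run with all 4 libraries, for the 25 promoter regions and for all 65. In the main fit 0 of all 75052 regions passed, with a smallest adjusted p of 0.173 by edgeR. A count of 0 at these genes therefore does not show that methylation was unchanged. Replicate numbers were shared between genotypes, but samples with the same number deviated together only weakly (correlation 0.0474), so the numbers were not taken as pairs. With the replicate block the median log2 fold-change of the promoters was −0.192 and 0 regions were called.

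Leaving out each library in turn gave medians from −0.301 to −0.0944, from 15 to 20 promoters with all βRapKO values below all WT values (fewer values make this easier to meet), and 25 to 26 promoters with a peak in every remaining library. With tags in peaks as library size the median was −0.0283, with 15 of 25 negative in place of 21, and 3 promoters had both βRapKO values lower. Other thresholds and joins gave 22 to 26 promoters with a peak in all libraries. Regions called in βRapKO alone numbered 0 where −log10 of the p multiplied by 10 had to reach 100, 2 with peaks joined at 50% overlap and 3 with equal numbers of peaks per library.

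Alternatives gene by gene were run for the 11 promoters described in depth. Among these the sign turned for Dazl (−0.4378 to 0.0457 over the left-out libraries, the latter without βRapKO replicate 1), Mael (−0.0488 per kb of peak, and −0.0629 to 0.293 over the left-out libraries), Sohlh2 (0.0431 with tags in peaks, 0.0110 per kb of peak) and Sycp3 (−0.0311 per kb of peak, −0.0578 for tags within 1 kb of the start, and −0.0773 to 0.1825 over the left-out libraries). The cause was not tested. A minimum of 50 tags took out Ddx4 and Figla, and the stricter peak threshold also took out Tdrd1. The count within 1 kb of the start gave no value for regions beyond promoters. The 39 to 325 tags per promoter region and library limit the precision of each value.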
